A study of Homo sapiens with 2 samples.

Results

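Chemokines are small secreted proteins that direct the migration of leukocytes. The 9 genes described here are the CXC chemokines CXCL1, CXCL2, CXCL3, CXCL5, CXCL6, CXCL8 and CXCL16 and the CC chemokines CCL2 and CCL20. They were followed through every probe set whose platform annotation names exactly 1 gene symbol equal to one of theirs, which gave 14 probe sets of 54613 on the array, control probe sets not counted. CXCL6 was chosen by its measured values, far lower with miR-130b than with the empty vector, so its difference is given as a description and supports nothing by itself. The data are 2 expression arrays of PLC8024, a human hepatocellular carcinoma (HCC) line whose CD133-negative cells had been isolated by flow cytometry. One array is of such cells transduced with a lentivirus carrying miR-130b, and the other is of such cells transduced with the empty vector, called miR-130b cells and empty vector cells below. CD133 negativity and lentiviral transduction are thus common to both, while no source used here gives the vector's promoter, the dose of virus or the interval before harvest. With 1 array per group there is no replicate error, no difference was tested, and every difference below is between these 2 arrays.

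The labels name miR-130b without its arm. The mature sequences of both arms, from RefSeq on GRCh38.p14, are shown because the vector carries this microRNA. Bases 2 to 8, the seed through which a microRNA pairs with its targets, are in capitals. The hairpin gene lies on chromosome 22, on the plus strand, with the arms at chr22:21653354-21653375 (3p) and chr22:21653316-21653336 (5p).
hsa-miR-130b-3p: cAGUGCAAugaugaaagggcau
hsa-miR-130b-5p: aCUCUUUCccuguugcacuac

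The ELR chemokines, here CXCL1, CXCL2, CXCL3, CXCL5, CXCL6 and CXCL8, carry a glutamate-leucine-arginine motif just before their first cysteines. They act through the receptors CXCR1 and CXCR2, attract neutrophils and promote angiogenesis, and their genes sit together in a cluster on chromosome 4 and respond to the transcription factor NF-kappaB. CXCL16 is made as a membrane-bound protein that binds CXCR6, CCL2 attracts monocytes through CCR2, and CCL20, a chemokine of liver and mucosal epithelia, binds CCR6.

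Values are the authors' RMA expression values, on the log2 scale, where 1 unit is 2-fold. Differences are miR-130b minus empty vector. A gene was counted as measured when the higher of its 2 values reached 4.88, the median of all non-control values, called the floor below, and it was represented by its measured probe set of highest mean. By this rule 8 of the 9 genes and 10 of their 14 probe sets were measured, among 13260 measured genes of 19775 named on the array. CCL2 was not measured. Where a gene had several measured probe sets, their differences scattered around the gene's mean with a pooled standard deviation of 0.202. This is a spread within the 2 arrays and holds no variation between cultures. RMA values can retain background, so differences of probe sets near or under the floor may understate the fold, which was not tested.

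Of the chemokine genes, CXCL6 stood lower in miR-130b cells by far more than the other measured ones. CXCL6, a neutrophil-attracting ELR chemokine also called granulocyte chemotactic protein, was at 3.51 in miR-130b cells, against 6.86 in empty vector cells, in its single probe set 206336_at. The difference of -3.36 on the log2 scale is a 10.2-fold lower value. The miR-130b value lay under the floor and the empty vector value well above it. CXCL6 was the only 1 of the 8 measured members beyond 1.5-fold or 2-fold in either direction by its representative probe set. Among all 13260 measured genes, 2.68% were at least 1.5-fold lower, 1.52% at least 2-fold lower, 0.294% at least 1.5-fold higher and 0% at least 2-fold higher. Since CXCL6 was picked for this difference, its count says nothing beyond that choice. Its place among other genes comes from the same values and likewise restates that choice. A more negative difference was seen in 10 measured genes. Of the 2236 other genes whose empty vector value lay within 0.5 of that of CXCL6, 48 were at least 2-fold lower and 3 had a difference as low.

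**Figure D1:**
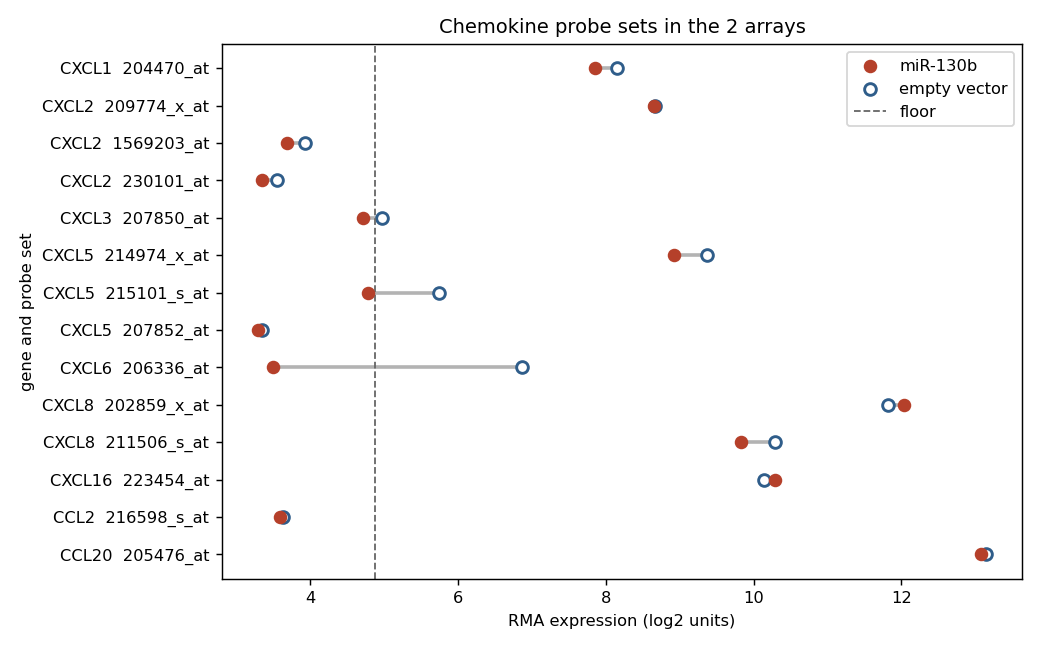
Expression of the 14 chemokine probe sets, 1 row each. Filled points are the miR-130b array, open points the empty vector array, and the horizontal axis is RMA expression in log2 units, with the floor of 4.88 as a dashed line. CXCL6 is at 3.51 with miR-130b and 6.86 with the empty vector, while the 2 values of each other row lie less than 1 unit apart.

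CXCL5, the gene whose protein is the closest relative of CXCL6, had 3 probe sets that did not give the same size of difference. Probe set 214974_x_at was at 8.93 in miR-130b cells, against 9.37 in empty vector cells, a difference of -0.44. Probe set 215101_s_at was at 4.78 in miR-130b cells, against 5.75 in empty vector cells, a difference of -0.97, or 1.96-fold lower. Probe set 207852_at was at 3.30 in miR-130b cells and 3.35 in empty vector cells, both under the floor. All 3 values were lower in miR-130b cells, and the 2 measured differences lay 0.53 apart. The spread of 0.202 is for single probe sets around their gene's mean and is not the spread of such a gap. On this array design the suffix _x_at marks probes that can match other sequences and _s_at probes shared by several transcripts. CXCL5 has only the unmeasured 207852_at without such a suffix, and the part of CXCL6 transcript in the CXCL5 values was not tested.

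CXCL8, also known as interleukin 8, had 2 measured probe sets with opposite signs. Probe set 202859_x_at was at 12.03 in miR-130b cells, against 11.82 in empty vector cells, a difference of 0.21. Probe set 211506_s_at was at 9.83 in miR-130b cells, against 10.29 in empty vector cells, a difference of -0.46. These differences lie 0.68 apart, so the direction for CXCL8 is not settled by the arrays, and both of its probe sets carry a suffix.

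CXCL1, CXCL2 and CXCL3, the closely related GRO chemokines, lay within 1.5-fold between the arrays. The differences of CXCL1 and CXCL3, but not that of the measured CXCL2 probe set, were larger in size than the spread of 0.202. CXCL1 was at 7.86 in miR-130b cells, against 8.16 in empty vector cells, a difference of -0.30 from 1 probe set. CXCL2 was at 8.66 in miR-130b cells and 8.67 in empty vector cells, a difference of -0.01 in probe set 209774_x_at. Its other probe sets, 1569203_at and 230101_at, were under the floor in both arrays, with differences of -0.25 and -0.19. CXCL3 barely reached the floor, at 4.72 in miR-130b cells, against 4.98 in empty vector cells, a difference of -0.25. For CXCL2 the single measured probe set carries the _x_at suffix, and how far it also measures the other GRO transcripts was not tested.

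The members outside the ELR group stood close together in the 2 arrays. CCL20 was at 13.08 in miR-130b cells and 13.14 in empty vector cells, a difference of -0.06. CXCL16 was at 10.29 in miR-130b cells and 10.15 in empty vector cells, a difference of 0.15. CCL2 was at 3.59 in miR-130b cells and 3.64 in empty vector cells in its 1 probe set, under the floor in both. The differences of CCL20 and CXCL16 were smaller than the spread of 0.202 between probe sets.

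Counted by sign alone, 6 of the 8 measured members were lower in miR-130b cells and 2 were higher, where 41.9% of all measured genes were lower. Their median difference was -0.16, against 0.03 over all measured genes. The 6 ELR genes had a median of -0.28, with 5 lower and CXCL8 higher by its representative probe set. Over all 14 member probe sets, measured or not, 12 were lower, 2 were at least 1.5-fold lower and 1 at least 2-fold lower. The same shares over all 41091 probe sets with 1 symbol were 44.5%, 1.83% and 0.862%. The difference was larger in size than 0.202, the spread between probe sets of a gene, for 5 of the 8 measured members and for 28.0% of all measured genes. These counts describe a list chosen with its results known, and CXCL3, CXCL6 and the CXCL5 probe set 215101_s_at reached the floor only in empty vector cells, so they had to come out lower.

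**Figure D2:**
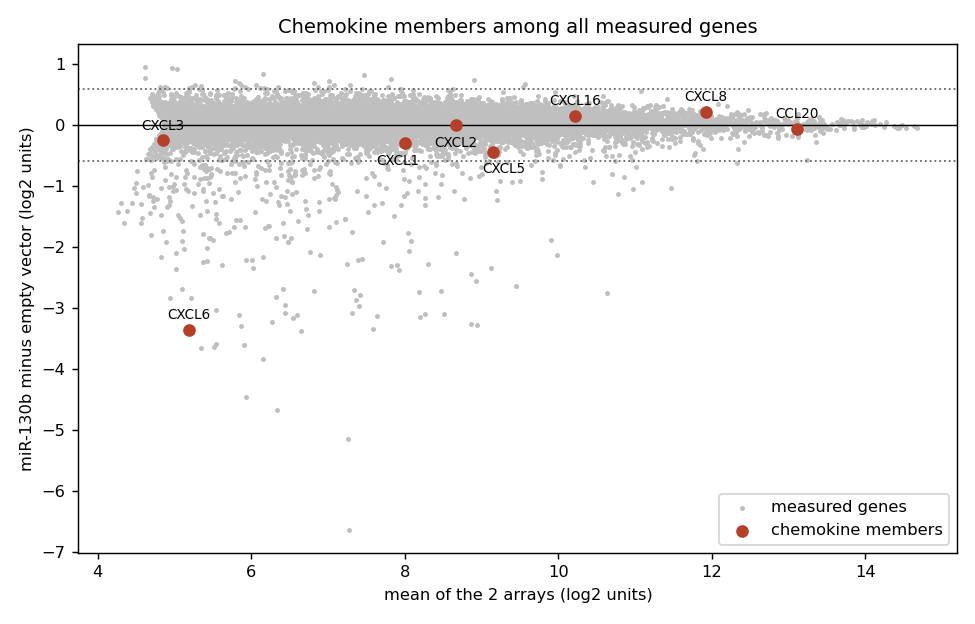
Difference, miR-130b minus empty vector (log2 units), against the mean of the arrays (log2 units) for 13260 measured genes in grey and the 8 measured chemokine genes in red, with dotted lines at 1.5-fold. CXCL6 lies at -3.36 and the other members between -0.44 and 0.21.

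By the rule of nearest pairs of values on the log2 scale, 5 measured genes were closest to CXCL6 over the 2 arrays. PLK2, a polo-like kinase, was at 3.52 in miR-130b cells, against 7.18 in empty vector cells, at a distance of 0.32. PRKD1, a serine/threonine kinase, was at 3.79 in miR-130b cells, against 6.63 in empty vector cells, at a distance of 0.37. MDFIC was at 3.76 in miR-130b cells, against 6.44 in empty vector cells. TNFRSF11B, which encodes the decoy receptor osteoprotegerin, was at 3.52 in miR-130b cells, against 6.36 in empty vector cells. GATA6, an endodermal transcription factor, was at 3.69 in miR-130b cells, against 7.33 in empty vector cells. In all 5 the miR-130b value lay under the floor, and each rested on 1 measured probe set. Nearness over 2 arrays says only that the same pair of values was seen.

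The 6 ELR genes share a chromosome neighbourhood, and CXCL6 stood apart from the genes beside it. In RefSeq order, ALB, AFP, AFM and RASSF6 precede CXCL8, which is followed by CXCL6, PF4V1, CXCL1, PF4, PPBP, CXCL5, CXCL3 and CXCL2, and then by MTHFD2L, EPGN, EREG, AREG and BTC. CXCL8 on the one side of CXCL6 differed by 0.21 (or -0.46 in its other probe set), and CXCL1, the next measured gene on the other side, by -0.30. PF4, the platelet chemokine platelet factor 4, was at 6.14 in miR-130b cells and 6.15 in empty vector cells. PF4V1 and PPBP were under the floor in both arrays. Upstream of the chemokines, ALB, which encodes albumin, was at 10.96 in miR-130b cells, against 11.99 in empty vector cells, a difference of -1.03, with -2.38 and -1.56 in its other measured probe sets. AFP, which encodes alpha-fetoprotein, was at 12.95 in miR-130b cells, against 13.53 in empty vector cells, a difference of -0.57, just short of 1.5-fold. On the far side, EREG, which encodes the growth factor epiregulin, differed by 0.05 and MTHFD2L by 0.39, or -0.06 in another measured probe set. Of 9 measured flanking genes, 1 was lower and 0 were higher by at least 1.5-fold, with a median of 0.05, where 2.68% and 0.294% of all measured genes were that much lower and higher.

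**Figure D3:**
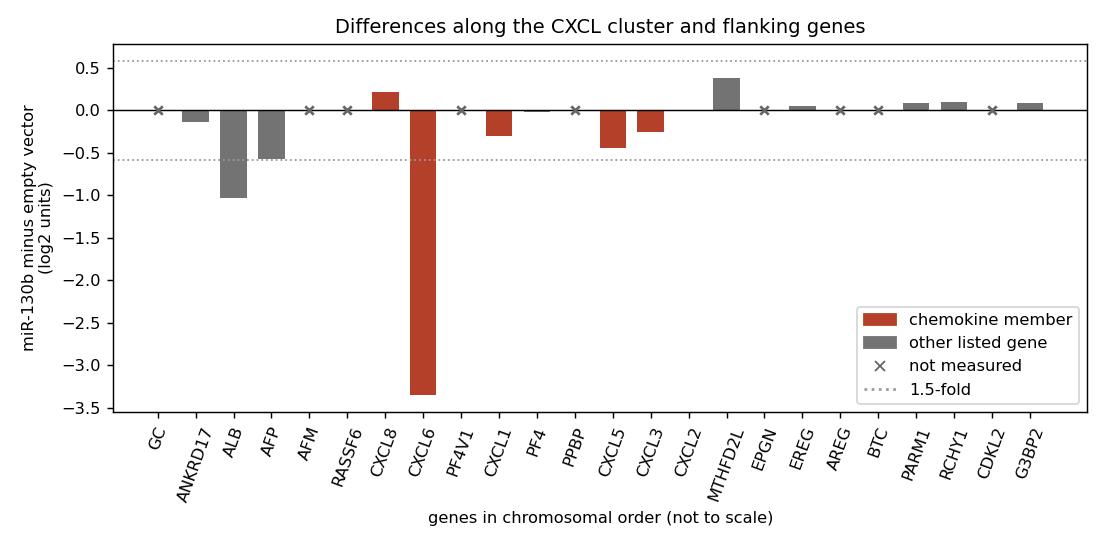
Difference, miR-130b minus empty vector (log2 units), of the representative probe set for 24 genes of chromosome 4 in RefSeq order, spaced evenly. Red bars are chemokine members, grey bars other listed genes, crosses genes not measured, and dotted lines 1.5-fold. CXCL6 has the longest bar, at -3.36, followed by ALB at -1.03, and the bar of CXCL2 at -0.01 is too short to see.

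The windows of 250 bases upstream of the annotated starts show how alike these genes are. RefSeq promoters on GRCh38.p14 were found for 7 of the 9 members, not for CXCL16 and CCL2. CXCL6 and CXCL5 had the most similar pair of windows, with 214 identical bases over 251 alignment columns (85.3%), followed by CXCL1 and CXCL3 with 81.4%. CXCL8 and CXCL6 matched at 46.7%. The windows of CXCL6 and CXCL5 are shown as the most similar pair. These genes had the lowest and the next lowest difference of the 8, -3.36 and -0.44, and any link to the windows was not tested. The capitals mark the letters GGAATTTCC, a core of NF-kappaB elements that was chosen after the windows had been read. CXCL6 is at chr4:73836428-73836677 on the plus strand and CXCL5 at chr4:73998678-73998927 on the minus strand, both written along the gene.
CXCL6: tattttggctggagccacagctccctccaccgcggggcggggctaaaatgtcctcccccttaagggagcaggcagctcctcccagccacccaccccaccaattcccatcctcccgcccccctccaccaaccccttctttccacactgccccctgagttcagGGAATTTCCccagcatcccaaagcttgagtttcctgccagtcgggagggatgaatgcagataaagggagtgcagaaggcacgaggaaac
CXCL5: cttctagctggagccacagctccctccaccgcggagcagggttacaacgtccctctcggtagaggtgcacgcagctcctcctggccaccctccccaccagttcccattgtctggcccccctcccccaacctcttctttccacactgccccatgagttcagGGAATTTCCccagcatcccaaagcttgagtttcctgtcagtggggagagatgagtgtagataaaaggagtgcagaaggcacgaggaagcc

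The same 9 letters stood in CXCL1, CXCL2, CXCL3 and CXCL8, so that 6 of the 7 members with a window held them, all on the gene's own strand and starting between 77 and 91 bases before the start. Searched on both strands, they were found in 145 of 35116 RefSeq windows (0.413%). The other 4 are shown with 10 bases on either side, at chr4:73869305-73869333 (plus strand), chr4:74099254-74099282 (minus), chr4:74038749-74038777 (minus) and chr4:73740468-73740496 (plus).
CXCL1: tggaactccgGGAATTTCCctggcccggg
CXCL2: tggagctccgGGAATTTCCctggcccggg
CXCL3: tggagctccgGGAATTTCCctggcccggc
CXCL8: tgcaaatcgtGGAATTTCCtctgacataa

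Beside these letters, the AP-1 letters TGANTCA were found in CXCL8 alone of the 7, against 6.57% of all windows, and the letters TTGCNNAA, one spelling of a C/EBP element, in CXCL2 alone, against 9.05%. TATAAA was present in CXCL8 and CCL20 (10.7% of all windows), and its part ATAAA in all 7 (32.7%). A match is a description of the letters, and the members that carry GGAATTTCC had differences from -3.36 for CXCL6 to 0.21 for CXCL8.

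Most other chemokine ligands lay under the floor, and 3 of those measured were lower by more than 1.5-fold. Of 36 listed ligands, 30 had a probe set of their own and 12 were measured. CXCL12, the ligand of CXCR4, was at 5.61 in miR-130b cells, against 6.49 in empty vector cells, a difference of -0.88 or a 1.84-fold lower value. Its other measured probe set was at 4.12 in miR-130b cells, against 5.41 in empty vector cells, a difference of -1.29. CX3CL1, the membrane-anchored chemokine fractalkine, was at 6.08 in miR-130b cells, against 6.91 in empty vector cells, a difference of -0.82. Its other probe set was at 5.26 in miR-130b cells, against 6.30 in empty vector cells, a difference of -1.04. CXCL10, an interferon-induced ligand of CXCR3, was at 4.36 in miR-130b cells, against 5.10 in empty vector cells, a difference of -0.74 from 1 probe set. No ligand of this list was at least 1.5-fold higher. The list's median was -0.11, against 0.03 over all measured genes, of which 2.68% were at least 1.5-fold lower. CXCL10 and the second probe set of CXCL12 reached the floor only in empty vector cells, so they had to come out lower, and the count is no support for the list. Both probe sets of CX3CL1 lay above the floor in both arrays. With the floor raised to the 75th percentile of all values, none of these 3 genes was measured.

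Most receptors of the chemokines lay under the floor. Of 21 listed receptors with a probe set of their own, 6 were measured and 0 were beyond 1.5-fold. The shares over all measured genes were 2.68% at least 1.5-fold lower and 0.294% at least 1.5-fold higher. The largest differences were those of ACKR2, a scavenging receptor for CC chemokines, at 5.34 in miR-130b cells, against 5.72 in empty vector cells (-0.38), and of CXCR6, the CXCL16 receptor, at 5.37 in miR-130b cells, against 5.19 in empty vector cells (0.18). CXCR1, which binds CXCL6 and CXCL8, was at 7.04 in miR-130b cells and 7.03 in empty vector cells. CCR6, the CCL20 receptor, was at 5.53 in miR-130b cells and 5.65 in empty vector cells. CXCR2, the receptor common to the ELR chemokines, and CCR2, the CCL2 receptor, lay under the floor in both arrays.

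Among 6 measured proteases that trim or shed chemokines, DPP4 alone was beyond 1.5-fold. That much lower were 2.68% of all measured genes, and that much higher 0.294%. DPP4, a membrane peptidase that shortens chemokines such as CXCL10 and CXCL12 at the amino end, was at 5.05 in miR-130b cells, against 6.22 in empty vector cells, a 2.24-fold lower value. Its 2 other measured probe sets differed by -2.33 and -1.79. Both reached the floor only in empty vector cells, so they had to come out lower and add no support. ADAM17, a sheddase, differed by 0.18. ADAM10, which releases CXCL16 from the membrane, differed by 0.05 in the probe set that represents it and by as low as -0.52 in the others, while CXCL16 itself differed by 0.15.

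The pathway upstream of the ELR genes lay within 1.5-fold between the arrays apart from NFKBIZ and MYD88. NFKBIZ, which encodes IkappaB-zeta, a nuclear co-regulator of a subset of NF-kappaB target genes, was at 7.12 in miR-130b cells, against 8.60 in empty vector cells, a 2.80-fold lower value. Its other probe set was at 5.92 in miR-130b cells, against 7.69 in empty vector cells, a difference of -1.77. NFKBIZ was the only 1 of 17 measured NF-kappaB subunits, inhibitors and kinases beyond 1.5-fold, and the median of that list was 0.02. The subunit gene NFKB1 differed by -0.34 and RELA by 0.10 (with -0.14 in another probe set). The inhibitor gene NFKBIA, itself a target of NF-kappaB, differed by -0.20. MYD88, the adaptor of interleukin 1 and Toll-like receptors, was at 6.58 in miR-130b cells, against 7.68 in empty vector cells, a 2.15-fold lower value from 1 probe set. It was the only 1 of 18 measured genes of interleukin 1, TNF, interleukin 17 and Toll-like input beyond 1.5-fold, and that list's median was -0.12. Over all measured genes, 2.68% were at least 1.5-fold lower and 0.294% at least 1.5-fold higher, so 1 gene in lists this short says little. IL1B, which encodes a strong inducer of the ELR genes, was at 5.38 in miR-130b cells, against 5.01 in empty vector cells.

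**Figure D4:**
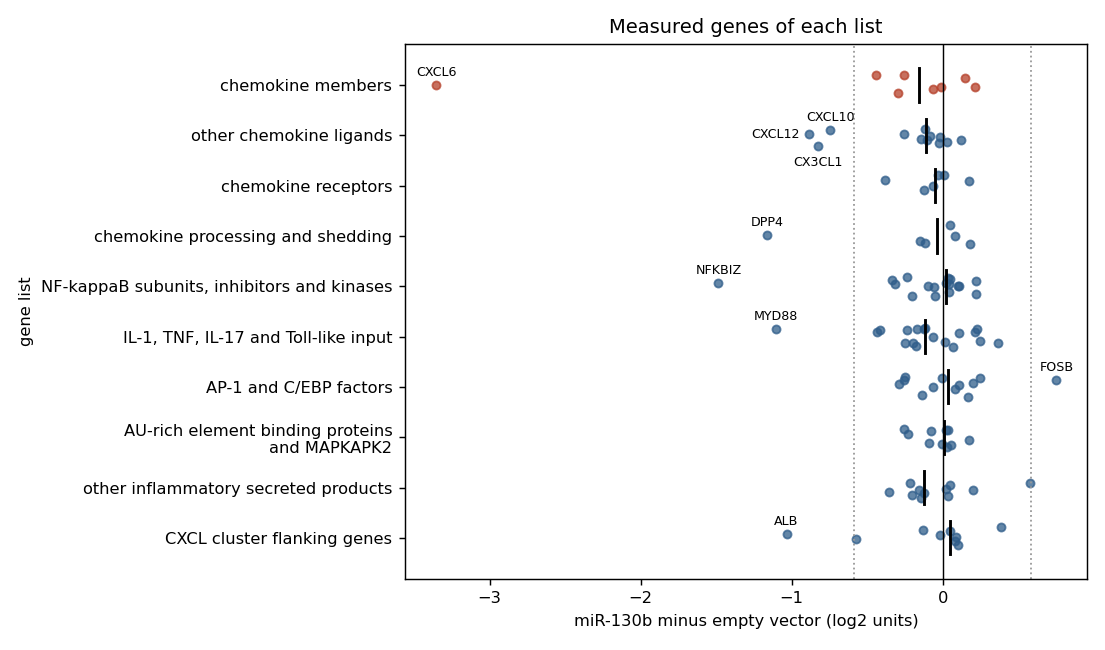
Difference, miR-130b minus empty vector (log2 units), of each measured gene in the chemokine members and in 9 related lists. Each point is a gene, black bars are list medians, dotted lines mark 1.5-fold, and genes beyond it are named. CXCL6 is at -3.36, NFKBIZ at -1.48 and FOSB at 0.75, while most genes lie within 1.5-fold.

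Other regulators and inflammatory products showed few differences beyond 1.5-fold. So did all measured genes, of which 2.68% were at least 1.5-fold lower and 0.294% at least 1.5-fold higher. Of 12 measured AP-1 and C/EBP genes, FOSB, an AP-1 subunit, alone passed 1.5-fold. It was at 8.20 in miR-130b cells, against 7.45 in empty vector cells, a difference of 0.75. CEBPB, a C/EBP factor of the acute-phase response, differed by 0.17. None of 10 measured genes for AU-rich element binding proteins, which set the stability of chemokine transcripts, and for MAPKAPK2, a kinase that acts on them, passed 1.5-fold, with ZFP36L1, a decay factor, at -0.26 and TIA1, a translational repressor, at -0.23. Of 11 measured secreted or surface inflammatory products 0 passed it, with the cytokine IL11 at 0.58 and IL32 at -0.35. IL11 had a second probe set under the floor, with the same value in both arrays.

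**Figure D5:**
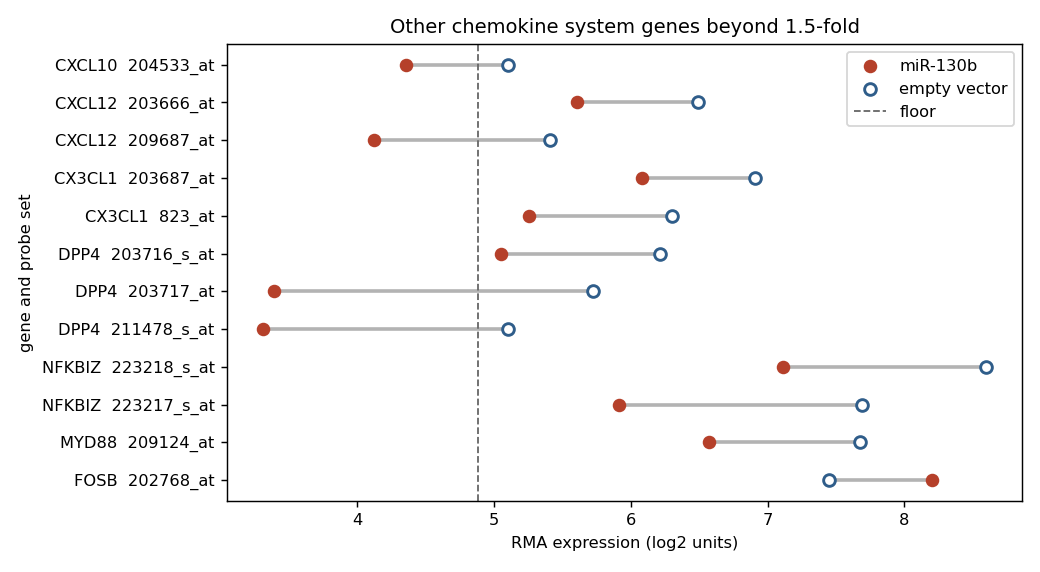
Expression in log2 units of every measured probe set of CXCL10, CXCL12, CX3CL1, DPP4, NFKBIZ, MYD88 and FOSB, with filled points for the miR-130b array, open points for the empty vector array and the floor of 4.88 as a dashed line. All rows but that of FOSB have the miR-130b point to the left, and the 3 DPP4 rows differ by -1.16, -2.33 and -1.79.

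Markers of the labelled cell type were present. Most leukocyte markers lay under the floor, while stromal and endothelial markers were in part measured. All 14 hepatocyte markers with a probe set of their own were measured. Of these, TTR, the thyroxine carrier transthyretin, and ALB were at least 1.5-fold lower (-3.34 and -1.03), against 2.68% of all measured genes. The list's median was 0.02, and its summed linear level was 115705 in miR-130b cells and 119247 in empty vector cells. Of 13 leukocyte markers 4 were measured, with a median difference of 0.03 and 0 beyond 1.5-fold. Their summed linear level was 891 in miR-130b cells and 1037 in empty vector cells, and without LYZ 189 in miR-130b cells and 161 in empty vector cells. PTPRC, the leukocyte antigen CD45, was at 3.80 in miR-130b cells and 3.82 in empty vector cells. LYZ, lysozyme, had a difference of -0.32, and of -1.72 in its other measured probe set, and CD163 by 0.42. Of 13 stromal and endothelial markers 7 were measured, with a median difference of -0.08. Their summed linear level was 758 in miR-130b cells and 924 in empty vector cells, and without COL1A2 728 in miR-130b cells and 671 in empty vector cells. COL1A2, a collagen chain, differed by -3.08 and -3.25 in its 2 measured probe sets. By representative probe sets it was the only 1 beyond 1.5-fold. COL1A1, another collagen chain, differed by -0.08 in its representative probe set and by -1.68 to 0.38 over its 4 measured probe sets. The COL1A2 probe set at -3.25 and the LYZ probe set at -1.72 reached the floor only in empty vector cells, so they had to come out lower. The part of other cells in the CXCL6 difference was not tested, and in bulk RNA fewer cells of a type and less RNA per cell cannot be told apart. The 3' to 5' signal ratio of the ACTB control probe sets, a measure of RNA integrity, was 2.41 in miR-130b cells and 1.95 in empty vector cells. That of GAPDH was 1.52 in miR-130b cells and 1.37 in empty vector cells, and the part of RNA quality in the differences was not tested.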

How the data were processed

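The authors deposited log2 expression values of 54675 probe sets on 2 arrays. They were made with RMA, per the submitters' processing notes, which give no version. No source used here gives its settings or says which arrays were normalized together. Groups were taken from the sample titles. One label field of the miR-130b sample reads transfection, while its protocol states lentiviral delivery. Of 54613 non-control probe sets, 41091 had 1 symbol in GEO's platform annotation, 1801 several and 11721 none, and those with several or none named no gene. The Entrez identifiers of 41037 were found in the RefSeq gene table.

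Differences were taken as miR-130b minus empty vector, and genes were counted beyond 1.5-fold and 2-fold as rules of size, since 1 array per group allows no test. The number of arrays limits the precision. The members and the 12 other gene lists were chosen with earlier results of these data known. The naming rule took all members, every gene of the other lists beyond 1.5-fold or else its 2 largest differences, and the 5 genes nearest to CXCL6 by Euclidean distance. Other genes were named after their values were seen, for their role or their place beside the cluster. Upstream windows were aligned globally (match 1, mismatch -1, gap opening -2, gap extension -0.5). The counting was tested on simulated data. Results were recomputed without a floor, with the floor raised to the 75th percentile, with the mean of a gene's measured probe sets, without _x_at and _s_at probe sets, and after loess centring with a span of 0.3. Python 3.11.15, numpy 2.4.6, pandas 2.3.3, statsmodels 0.14.6, Biopython 1.88 and matplotlib 3.10.9 were used.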

Additional observations from a re-analysis of the deposited data

How the results depend on the processing

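CXCL6 had a difference of -3.36 without a floor, with the mean of probe sets and without the suffixed probe sets, and of -3.37 after loess centring. CXCL6 has 1 probe set, which carries no suffix, so of these settings only loess centring could change its value. With the floor at the 75th percentile (6.98) it was not measured, since its empty vector value was 6.86, and the number of members at least 1.5-fold and 2-fold lower was then 0 and 0, against 1 and 1. With the mean of probe sets 2 members were at least 1.5-fold lower, as CXCL5 then had -0.70, and CXCL8 had -0.12 in place of 0.21. Over the 12 other lists, 5 genes were at least 1.5-fold lower with the higher floor, against 9, because fewer genes were kept. Without the suffixed probe sets 5 members were measured, and NFKBIZ, ALB and COL1A2 had no measured probe set left, while 1 leukocyte marker, LYZ, was at least 1.5-fold lower there and with the mean of probe sets. Both LYZ values draw on the probe set that reached the floor only in empty vector cells. Reversal of sign was looked for only in the member differences and list medians beyond 1.5-fold. CXCL6 was the only such value, and it was not reversed. The other listed genes were not followed singly over the alternatives. No paired analysis was possible because each group has 1 array. The dim values near the floor are where background may limit the size of the difference.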
